A study of Mus musculus with 5 samples.

Results

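The RNA that anti-myc beads brought down from mouse fibroblasts labelled as induced for myc-tagged AUF1 p42 was set against the RNA of the cells as a whole. The comparison rests on 3 of the 5 arrays of the series, 2 of ribonucleoprotein immunoprecipitates (RNP-IPs) labelled induced and 1 of total RNA, and it takes in all 45101 probe sets. The cells were NIH/3T3, an established mouse embryonic fibroblast line, and carried 2 stably integrated retroviral vectors of the mifepristone-inducible GeneSwitch system, the second of them encoding AUF1 p42 with a myc tag at its amino terminus. After infection, cell pools had been selected with blasticidin while 1 nM mifepristone was present. Cells of the 2 RNP-IPs labelled induced were then given 1 nM mifepristone for 24 h, and the 2 RNP-IPs labelled uninduced, used here only beside the others, came from cells of the same kind without that treatment. All 4 RNP-IPs were taken from cleared cell extracts with anti-c-myc agarose beads, without crosslinking. No source used here says whether the total RNA came from induced or uninduced cells, or from the same cultures as an RNP-IP. A difference from total RNA can therefore come from the precipitation or from the culture, and with 1 total RNA array these cannot be told apart.

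AUF1, the product of Hnrnpd, is an RNA-binding protein made in several isoforms by alternative splicing, of which p42 is named for its size. It is best known for binding AU-rich elements (AREs), stretches rich in A and U in the 3′ untranslated regions of many short-lived mRNAs such as those of cytokines, growth factors and cell cycle regulators, and it takes part in their decay. An RNP-IP recovers a protein together with the RNA bound to it. Beads also hold some RNA without the tagged protein, so the level in the whole cell and the level in a precipitate of uninduced cells answer different questions. Total RNA gives the first, and it tells an mRNA that is plentiful in the precipitate because cells hold much of it from one that is over-represented there.

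The values are log2 signals after robust multiarray averaging (RMA), so that 1 unit is a 2-fold change. A probe set or gene was called higher or lower where the mean of the 2 RNP-IPs labelled induced lay at least 3-fold from total RNA at an adjusted p under 0.5 in limma, the rule of the study's methods. This is a lenient threshold, and no probe set reached an adjusted p under 0.05. The smallest adjusted p was 0.0912, while 6259 probe sets had an unadjusted p under 0.05. The spread came from the 2 pairs of RNP-IPs alone, and the single total RNA array was assumed to vary like them. A log2 signal under 5 was taken as near background, and where either side was that low the fold is given as a lower bound, counted from 5. Nothing says that the replicates came from separate cultures, so the p-values measure the spread between these arrays, which may be technical.

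Hnrnpd itself, on its brightest probe set, was lower in the RNP-IPs labelled induced than in every other array. Its log2 signal was 6.72 and 7.39 in the 2 RNP-IPs labelled induced but 10.60 in total RNA, which is 11.7-fold lower (log2 difference -3.55, SE 0.43, adjusted p = 0.146 from limma), against 11.35 and 11.85 in the RNP-IPs labelled uninduced. A second probe set had 3.71 and 3.61 against 7.03, at least 4.08-fold lower, and the third was near background on both sides. Whether these probe sets lie within the AUF1 sequence of the vector is not given. An RNP-IP also measures the mRNA recovered on the beads and not its level in the cells. These values therefore do not settle which cells expressed AUF1 from the vector, and every direction below holds for the arrays as labelled. The 2 RNP-IPs labelled induced also differed from each other in the balance of 3′ and 5′ signal, a sign of RNA quality or amplification. The 3′ probe set of Gapdh exceeded its 5′ probe set by 3.71 and 5.47 log2 units in replicates 1 and 2 and by 5.40 in total RNA, and for Actb these values were 2.46, 5.34 and 5.24. Replicates 1 and 2 labelled uninduced differed in the reverse order, with 6.05 and 4.29 for Gapdh and 6.70 and 3.59 for Actb. The array's control for the middle of 18S ribosomal RNA stood at 11.35 in replicate 1 and 9.40 in replicate 2 labelled induced and at 8.98 in total RNA. The part of these differences in the results was not tested, and each replicate labelled induced is therefore also set against total RNA by itself.

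Over all 45101 probe sets 94.8% lay within 3-fold of total RNA, but 31456 of them were near background in total RNA. Of the 13565 probe sets with a mean log2 signal of at least 5 over the 5 arrays, 84.6% lay within 3-fold and 15.4% beyond it. Over all probe sets, 692 (1.53%) were called higher and 1386 (3.07%) were called lower. Counted once for each of 18194 genes, by its brightest probe set over the 5 arrays, 369 genes (2.03%) were higher and 819 (4.50%) were lower. Counted from the background value of 5, 326 of the 369 and 733 of the 819 still lay at least 3-fold from total RNA. Among called genes with several probe sets, 8 of 227 higher and 10 of 648 lower ones had another probe set called in the opposite direction. Taken alone, replicate 1 had 948 probe sets at least 3-fold above total RNA and 1979 at least 3-fold below, and replicate 2 had 928 and 1491. Both arrays were beyond 3-fold on the same side for 539 probe sets above and 1076 below, and no probe set was beyond 3-fold in opposite directions. Both replicates thus had more probe sets below total RNA than above it.

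**Figure D1:**
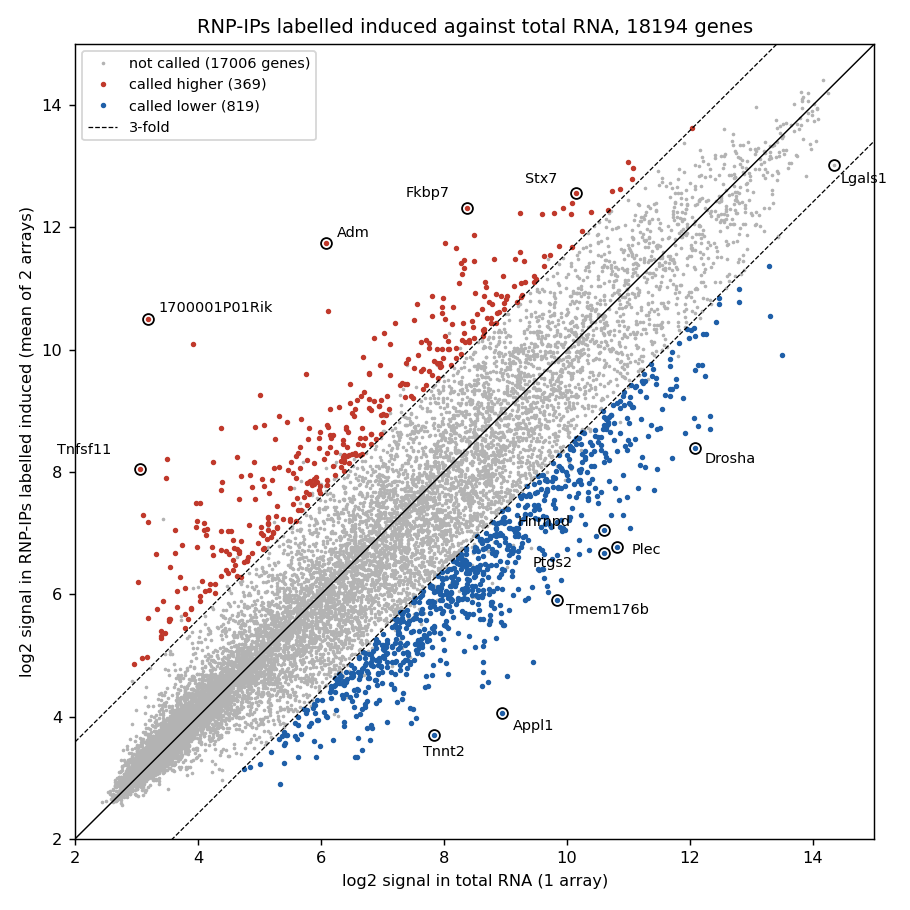
Log2 signal of each of 18194 genes in total RNA (x axis, 1 array) and in the RNP-IPs labelled induced (y axis, mean of 2 arrays), with the line of equality and dashed lines at 3-fold. The 369 genes called higher (red) reach down to the lowest total RNA signals, and the 819 called lower (blue) lie at moderate to high total RNA signals.

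Among the same 13565 probe sets at log2 5 or more, the median size of the difference from total RNA was 0.64 log2 units, against 0.41 between the 2 RNP-IPs labelled induced. The RNP-IPs labelled uninduced lay nearer to the same total RNA array, with a median size of 0.49 and 0.39 between their own replicates. The median signed difference over these probe sets was -0.12, so the precipitate was slightly below total RNA for the typical expressed probe set, and 0.01 over all probe sets.

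Signal classes were set by the mean of the 2 uninduced-labelled arrays, which the comparison does not use, since the error of the total RNA array would otherwise enter both the class and the difference. A signal also depends on the probes, so these are classes of signal and not of molecules per cell. Of 31584 probe sets under log2 5, 0.56% were at least 3-fold above total RNA and 0.59% at least 3-fold below. The shares rose to 3.95% and 8.60% of 6430 probe sets between 5 and 7 and were highest between 7 and 9, at 5.61% and 14.1% of 3974. They were 4.89% and 12% of 2047 between 9 and 11, and 2.63% and 3.66% of the 1066 brightest probe sets, at 11 and over. Departures from total RNA were thus most frequent at intermediate signals, and in each class from 5 up more probe sets lay below total RNA than above it. In the brightest class this excess came from 1 array, since replicate 1 alone gave 3.28% above and 8.07% below and replicate 2 alone 2.72% and 2.63%. Classes set by total RNA itself gave another picture at the bright end, with 0.45% above and 9.97% below at 11 and over, and classes by the mean of all 5 arrays gave 2.54% and 2.34%.

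**Figure D2:**
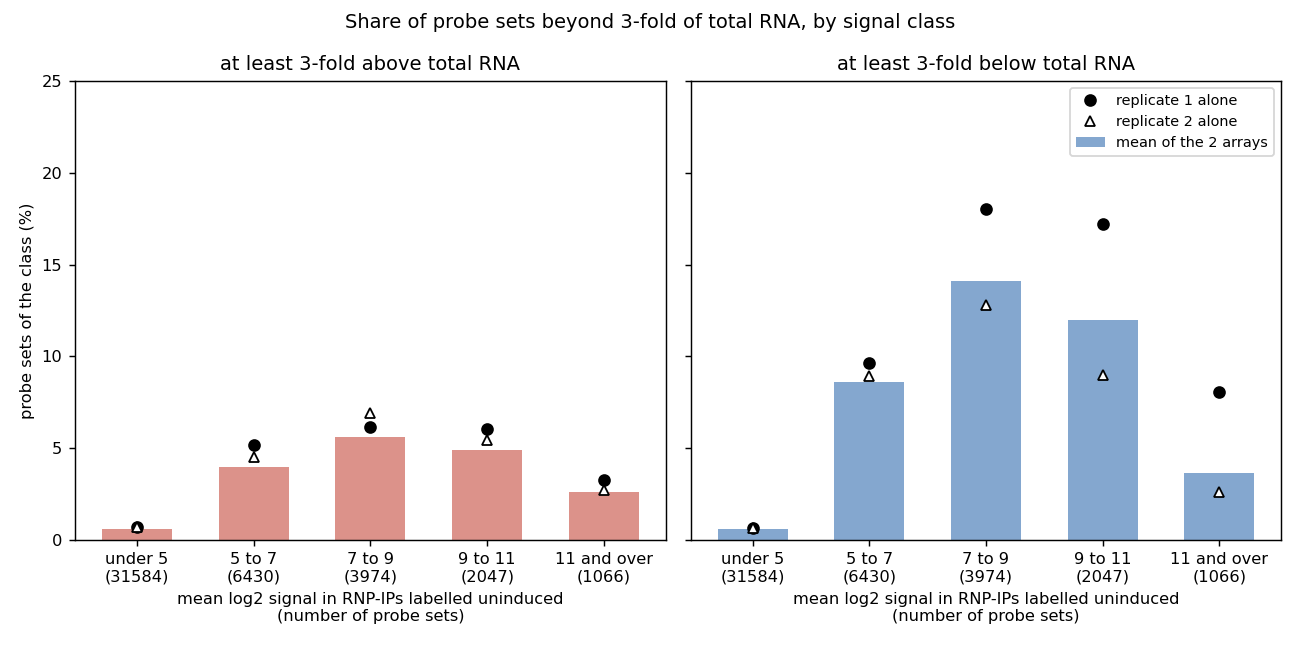
Share of probe sets (%) at least 3-fold above (left) or below (right) total RNA in 5 classes of mean log2 signal in the uninduced-labelled arrays, with the number of probe sets of each class in brackets. Bars are the mean of the 2 RNP-IPs labelled induced, and points are each replicate alone. Shares peak between log2 7 and 9, at 5.61% above and 14.1% below, and replicate 1 has the larger share below in every class.

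Of the 12 genes farthest above total RNA, 8 were near background in the total RNA array. Of the 692 probe sets called higher, 240 (34.7%) had a total RNA signal under log2 5, and the median over all 692 was 5.90 in total RNA, 8.21 in the induced-labelled arrays and 6.68 in the uninduced-labelled ones. In all, 20 genes lay under log2 5 in total RNA and at 7 or more in both RNP-IPs labelled induced, at least 3-fold above in each. The uncharacterised gene 1700001P01Rik had 10.64 and 10.37 in the RNP-IPs labelled induced against 3.18 in total RNA, so at least 45.5-fold more (adjusted p = 0.0912), on 1 of its 2 probe sets. Its second probe set was near background on both sides. Cxcl15, a chemokine known from lung epithelium, had 9.94 and 10.24 against 3.91, at least 34.0-fold more, and its second probe set was at least 15.0-fold more. In the RNP-IPs labelled uninduced Cxcl15 had 8.53 and 7.83, also called higher than total RNA.

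Tnfsf11, the ligand RANKL that drives the formation of osteoclasts, had 7.99 and 8.12 against 3.06, at least 8.30-fold more (adjusted p = 0.0912). Its level in the RNP-IPs labelled uninduced was also near background, at 3.64 and 3.27, so the signal appeared in the 2 arrays labelled induced and in none of the other 3. This holds for 1 of its 2 probe sets, as the other was near background in total RNA and the arrays labelled induced. Nmrk1, a kinase of NAD synthesis, had 7.97 and 8.45 against 3.50, at least 9.25-fold more, with 6.40 and 5.50 in the RNP-IPs labelled uninduced. Dus4l, which modifies transfer RNA, had 8.04 and 7.77 against 3.48, at least 7.50-fold more on 1 of 4 probe sets. Cmbl, a hydrolase, had 9.28 and 8.16 against 4.37, at least 13.2-fold more, and 4732491K20Rik had 7.23 and 7.35 against 3.11, at least 4.88-fold more. Each of these genes lay above total RNA in both arrays by over 3-fold even when counted from the background value.

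Some genes far above total RNA were measured above background on both sides. Adm, the vasoactive peptide adrenomedullin, had 11.81 and 11.69 against 6.08, which is 50.8-fold more (log2 difference 5.67, SE 0.08, adjusted p = 0.0912). Its signal was higher still in the RNP-IPs labelled uninduced, at 12.84 and 12.85, so all 4 precipitates lay far above total RNA. Vip, another peptide hormone, had 8.50 and 10.03 against 5.01, with 8.70 and 8.24 in the RNP-IPs labelled uninduced, and AI662270, near background in total RNA, had 6.67 and 7.69 against 3.19, at least 4.53-fold more, with 7.38 and 6.76. Fkbp7, a folding enzyme of the endoplasmic reticulum, had 12.33 and 12.32 against 8.38, which is 15.4-fold more (log2 difference 3.94, SE 0.08, adjusted p = 0.0912), with 9.71 and 9.59 in the RNP-IPs labelled uninduced. Mbnl3, a regulator of splicing, had 10.22 and 11.06 against 6.12, 22.8-fold more, but a second expressed probe set differed by -0.09, and the third was near background on both sides.

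The 12 highest genes thus fell into unlike patterns once the RNP-IPs labelled uninduced were set beside them. The difference between the RNP-IPs labelled induced and those labelled uninduced, in which total RNA cancels, was called higher for 1.38% of all genes and lower for 2.65%. Among the 12 genes it was called higher for 9, and it was not called for Adm (-1.09), Vip (0.79) and AI662270 (0.10). The 2 comparisons share the arrays labelled induced, so they are not independent.

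**Figure D3:**
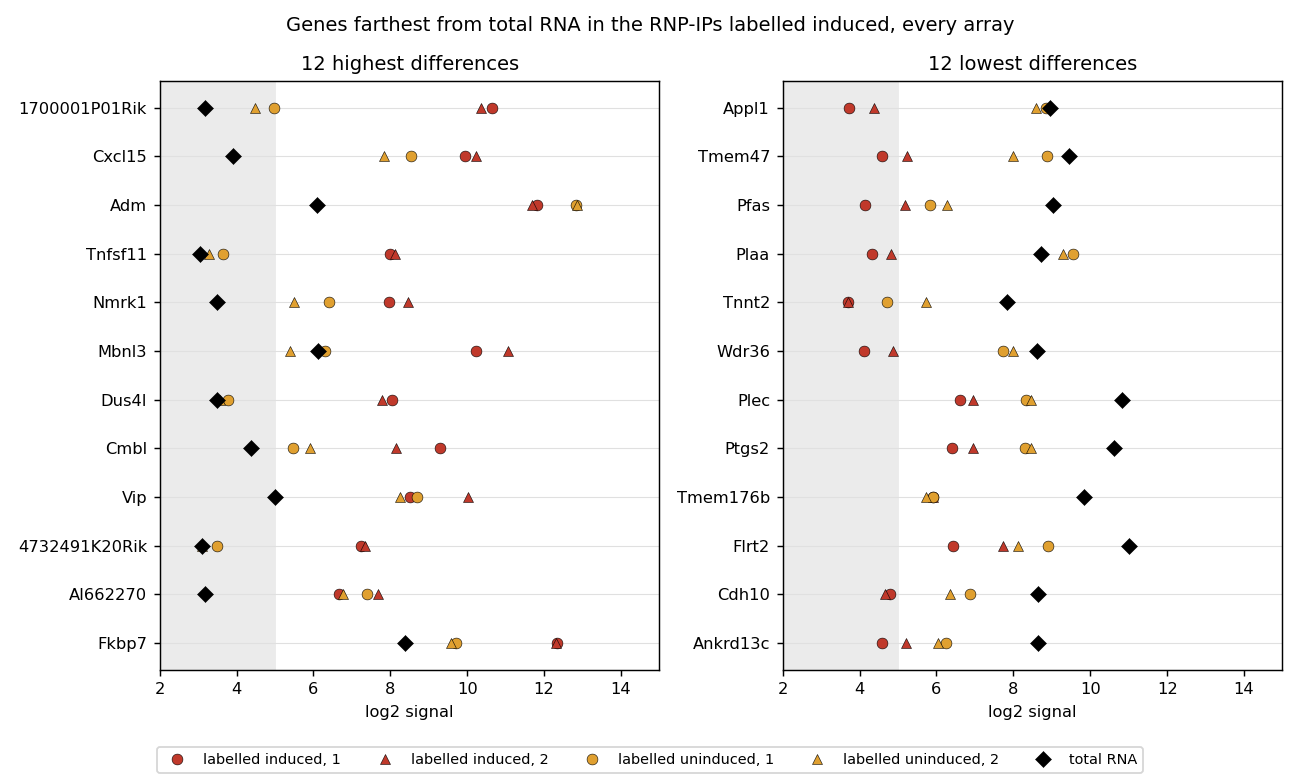
Log2 signal (x axis) in every array for the 12 genes farthest above total RNA (left) and the 12 farthest below it (right) among genes called with both replicates beyond 3-fold. Red marks the RNP-IPs labelled induced, yellow those labelled uninduced and black diamonds total RNA, and signals under 5 are shaded as near background. For Adm, Vip, AI662270 and Tmem176b the yellow points lie nearer to the red ones than to total RNA, and for Tnfsf11, Dus4l and Appl1 they lie nearer to total RNA.

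The genes farthest below total RNA included several whose signal in the precipitate fell to background. Of the 1386 probe sets called lower, 377 (27.2%) were under log2 5 in both RNP-IPs labelled induced, and the median over all 1386 was 8.09 in total RNA, 5.79 in the induced-labelled arrays and 7.19 in the uninduced-labelled ones. There were 23 genes at 7 or more in total RNA and under 5 in both. Appl1, an adaptor of early endosomes, had 3.72 and 4.38 against 8.94 in total RNA, at least 15.3-fold less (adjusted p = 0.11), while the RNP-IPs labelled uninduced, at 8.86 and 8.59, lay next to total RNA. Plaa, a ubiquitin-binding protein, had 4.32 and 4.82 against 8.71, at least 13.1-fold less, with 9.55 and 9.28 labelled uninduced, but a second expressed probe set of Plaa differed by 0.38. Wdr36, which acts in ribosomal RNA processing, had 4.12 and 4.88 against 8.62, at least 12.3-fold less, and its second probe set differed by -0.82. Megf9 had 3.40 and 4.55 against 7.55, at least 5.86-fold less.

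Of the others near background, Tnnt2, cardiac troponin T, had 3.70 and 3.71 against 7.83 and was at least 7.11-fold less. Cdh10, a cadherin of cell adhesion, had 4.78 and 4.67 against 8.64, at least 12.5-fold less on 1 of 4 probe sets. Tmem47 had 4.57 and 5.22 against 9.44, at least 20.1-fold less. Pfas, an enzyme of purine synthesis, had 4.14 and 5.18 against 9.03, at least 15.4-fold less, and Ankrd13c had 4.57 and 5.21 against 8.63, at least 11.5-fold less, with a difference of 0.66 on a second expressed probe set. For Tnnt2, Cdh10, Pfas and Ankrd13c the RNP-IPs labelled uninduced lay between, with signals from 4.72 to 6.88. Tmem176b was a case apart, at 5.91 in both RNP-IPs labelled induced and 5.91 and 5.72 in those labelled uninduced against 9.84 in total RNA, 15.3-fold lower (log2 difference -3.93, SE 0.11, adjusted p = 0.0912).

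Among the 1281 genes at log2 10 or more in total RNA, 13 (1.01%) were called higher and 182 (14.2%) lower. These genes were chosen by the same total RNA array that enters the difference, so an excess of lower calls is built into the choice. None of the 5 brightest was called. Lgals1, a secreted lectin, had 13.08 and 12.96 against 14.34, a log2 difference of -1.32 (SE 0.08, adjusted p = 0.103) that fell short of 3-fold. Rps2, Rpsa and Rps20, of the small ribosomal subunit, differed by -0.05, -0.31 and -0.13, and Uqcrb, of respiratory complex III, by 0.23. The reference genes named for this purpose were too variable to place, with -1.52 (SE 1.66) for Gapdh, -0.58 (SE 0.76) for Actb and -0.79 (SE 1.25) for Rplp0. Each was lower in replicate 2 than in replicate 1, at 9.71 against 11.90 for Gapdh, 12.51 against 13.81 for Actb and 11.88 against 13.21 for Rplp0.

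The 6 of these bright genes farthest above total RNA lay 3.66-fold to 5.33-fold from it. Stx7, a syntaxin of late endosome fusion, had 12.63 and 12.48 against 10.14, 5.33-fold more (log2 difference 2.41, SE 0.11, adjusted p = 0.0918). Higd2a, which assembles respiratory complexes, had 12.42 and 12.01 against 10.06, 4.46-fold more. Mtres1, a mitochondrial RNA-binding protein, had 12.87 and 13.06 against 11.08, 3.70-fold more. Snrpd3, an Sm protein of the spliceosome, had 12.56 and 12.24 against 10.08, 4.97-fold more, a call that was lost without replicate 1. Ywhae, an adaptor that binds phosphorylated proteins, had 12.73 and 12.47 against 10.73, 3.66-fold more, and 2 further probe sets of it moved by 2.02 and 1.79 while the other one had -0.56. Arpp19, an inhibitor of a mitotic phosphatase, had 12.84 and 13.30 against 10.99 on its brightest probe set, 4.22-fold more, but its other 2 differed by 0.59 and by -3.85, the latter called lower. For these 6 genes the RNP-IPs labelled uninduced lay above total RNA too, from 10.94 to 12.85.

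Below total RNA, Plec, the large cytoskeletal linker plectin, had 6.61 and 6.95 against 10.82, 16.4-fold less (log2 difference -4.04, SE 0.20, adjusted p = 0.0958). Ptgs2, the inducible prostaglandin synthase and a classical ARE-containing mRNA, had 6.40 and 6.95 against 10.61, 15.3-fold less, with 1.33 on a second, dimmer probe set that was not called against total RNA. Between the 2 kinds of RNP-IP these probe sets of Ptgs2 were called in opposite directions, at -1.70 and 2.82. Flrt2, a cell adhesion protein, had 6.44 and 7.73 against 11.02, 15.2-fold less. Drosha, the nuclease that starts microRNA maturation, had 7.93 and 8.84 against 12.09, 13.0-fold less. Plk4, the kinase of centriole duplication, had 7.14 and 8.28 against 11.41, 13.0-fold less, and Timp1, an inhibitor of metalloproteinases, had 6.44 and 7.02 against 10.36, 12.4-fold less. For all 6 the RNP-IPs labelled uninduced were between, from 8.12 to 11.02.

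The called genes were then read by gene group. Of 856 different genes measured in 30 lists, each list is described by its number called beside the share over all 18194 genes, 2.03% higher and 4.50% lower. For the 8275 genes with a mean log2 signal of at least 5, a nearer background for expressed groups, these shares were 4.15% and 9.27%, and the median difference was -0.16. No list was tested as a whole. Calls near the threshold depend on both arrays, so the counts without replicate 1 or without replicate 2 are given where they moved by over 1.5 times.

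**Figure D4:**
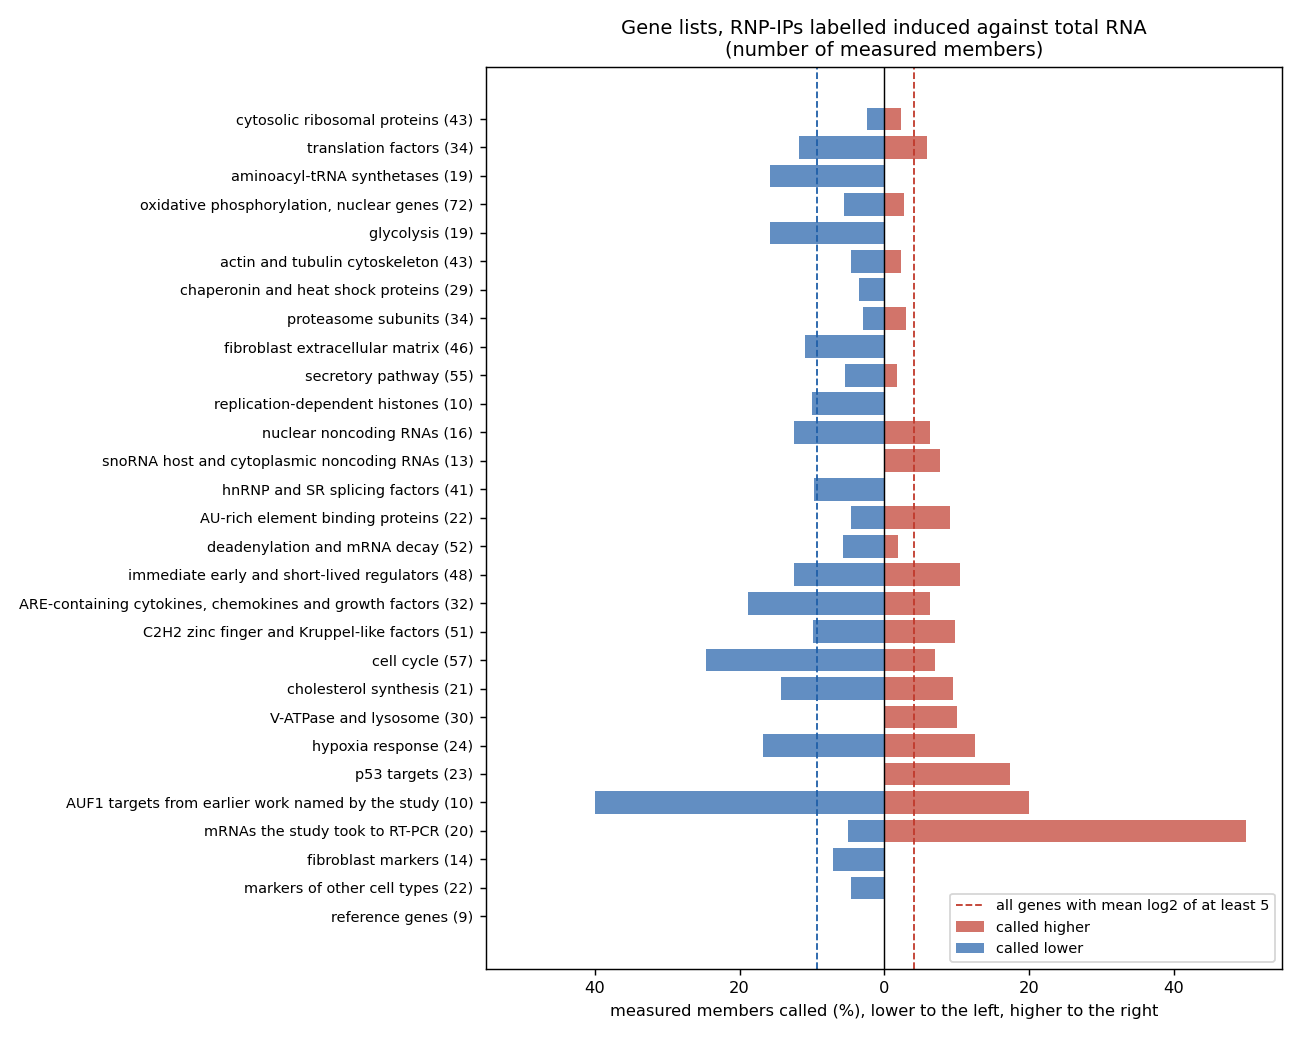
Percentage of measured members of each gene list called lower (bars to the left) or higher (bars to the right) in the RNP-IPs labelled induced against total RNA, with the number of measured members in brackets. Dashed lines mark 9.27% lower and 4.15% higher over all genes with a mean log2 signal of at least 5. The cell cycle list reaches 24.6% lower and the p53 targets 17.4% higher, and the list the study took to RT-PCR was chosen on these arrays.

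Housekeeping groups had few calls. Of 43 cytosolic ribosomal protein mRNAs 1 was called higher and 1 lower, with a median of -0.13. The members called were Rps6, with 10.53 and 10.52 against 8.70, and Rpl12, with 4.86 and 4.82 against 6.72, so at least 3.29-fold less. Among 72 nuclear genes of oxidative phosphorylation 2 were higher (Ndufa6 and Ndufb3) and 4 lower (Uqcrq, Uqcrc1, Ndufs7 and Ndufv1), with a median of -0.17. Uqcrq, of respiratory complex III, was the lowest at 8.07 and 8.84 against 11.03. These counts were 2 and 2 without replicate 1 and 0 and 6 without replicate 2. The only mitochondrially encoded transcript with a probe set of its own, ND5, had 9.87 and 10.35 against 9.41 and was not called, although the RNP-IPs labelled uninduced had 6.43 and 5.45.

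Of 34 proteasome subunits, Psmd10 was higher, with 8.91 and 8.62 against 6.10, and Psmc4 lower, and the median was -0.33. The lower count was 0 without replicate 1 and 3 without replicate 2. Of 29 chaperonins and heat shock proteins Dnajc3, an endoplasmic reticulum co-chaperone, was lower at 4.70 and 6.05 against 7.84, and none was higher (1 without replicate 1), with a median of 0.00. Another probe set of Dnajc3 was called higher, at 7.91 and 8.27 against 5.85, so the direction of this gene is not settled. Of 43 genes of the actin and tubulin cytoskeleton, Myl12b, a myosin light chain, was higher at 10.87 and 11.17 against 8.68, and Cnn2 and Tubb6 were lower, with a median of -0.58. The call of Cnn2 was lost without either replicate.

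Of 19 aminoacyl-tRNA synthetases 3 were lower (15.8%) and none higher, with a median of -0.38, and these 3 calls held without either replicate. Over all genes at a mean log2 of at least 5 the shares were 9.27% and 4.15%, so 3 calls do not set this list apart. Mars1, which charges the methionine tRNA, had 7.51 and 7.69 against 10.49, 7.43-fold less (adjusted p = 0.139). Qars had 8.09 and 8.62 against 10.97, with 0.47 on a second probe set, and Iars had 8.14 and 8.20 against 10.25. Of 34 translation factors 2 were higher (Eif4a2 and Eif1ax) and 4 lower (Eif3l, Eif2s2, Eif6 and Eif4ebp1), with a median of -0.33. Eif2s2 was called on its brightest probe set alone, at -1.72. Its other probe sets above background had -0.57, -0.01, -0.92 and -1.60. Those of Eif1ax had 0.74 and -0.39 and were not called. The helicase Eif4a2 had 12.59 and 11.84 against 9.59, 6.16-fold more, while Eif3l had 8.94 and 8.82 against 10.97, 4.25-fold less. Eif4a2 was also called higher in the RNP-IPs labelled uninduced, at 11.10 and 11.74. Without replicate 1 the list of translation factors had 1 higher and 1 lower. In glycolysis 3 of 19 were lower (15.8%, median -0.56), including the glucose transporter Slc2a1 at 6.62 and 8.57 against 10.97 and the isomerase Tpi1 at 9.94 and 9.98 against 11.70. The call of the third, Hk2, was lost without replicate 2.

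The cell cycle list had the largest share of lower calls among lists of over 20 measured members, with 14 of 57 lower (24.6%), 4 higher (7.02%) and a median of -0.43. Mcm5, a subunit of the replicative helicase, had 7.82 and 8.65 against 11.70, 11.1-fold less (adjusted p = 0.157). Mcm2 had 8.45 and 8.71 against 10.46, and Mcm6 had 8.63 and 9.58 against 11.02. Top2a, the topoisomerase of dividing cells, had 9.22 and 9.24 against 11.29, and the proliferation marker Mki67 had 9.26 and 9.19 against 11.02. Of the mitotic genes, the checkpoint kinase Bub1 had 6.53 and 6.87 against 9.20. The kinase Cdk6, which drives entry into S phase, had 6.23 and 5.51 against 8.45.

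The 4 cell cycle genes called higher were 3 inhibitors and a cyclin. Cdkn1a, an inhibitor of cyclin-dependent kinases, had 10.67 and 9.59 against 7.63, Cdkn2b had 11.01 and 11.16 against 9.25, Cdkn2a had 7.06 and 6.45 against 4.58 (at least 3.39-fold more), and Ccng2, a cyclin that rises in arrested cells, had 10.43 and 11.05 against 8.78. Without replicate 1 the list had 9 members lower and 3 higher, the call of Cdkn1a among those lost, and without replicate 2 it had 15 and 5. In the RNP-IPs labelled uninduced, set against the same total RNA array, 5 members were called lower and 4 higher, where 1.36% and 1.26% of all genes were. As 55 of the 57 members had a mean log2 signal of at least 5, expressed genes would be the nearer background. Their shares were not counted for this comparison.

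Targets of p53, the tumour suppressor that is activated by stress, had few calls, all of them higher. Of 23 measured, 4 were higher (17.4%, beside 4.15% of genes at a mean log2 of at least 5) and none lower (beside 9.27%). The median was 0.35, and the call of Cdkn1a among the 4 was lost without replicate 1. So few calls do not set this list apart. None of its members was called between the RNP-IPs labelled induced and those labelled uninduced. Trp53inp1 had 10.25 and 11.25 against 7.56, 9.09-fold more (adjusted p = 0.202). Sesn1, a stress-induced regulator of growth signalling, had 10.27 and 10.32 against 8.65, with 0.97 on the probe set brightest in total RNA, which was not called. Ddit4, another such regulator, had 10.00 and 9.87 against 8.28. The RNP-IPs labelled uninduced were higher still for Trp53inp1, at 12.24 and 11.90, and 3 members were called higher there. The hypoxia list went both ways, with 3 of 24 higher (Adm, Ddit4 and Slc2a3) and 4 lower (12.5% and 16.7%, median -0.29). Slc2a3 was near background in total RNA, at 5.38 and 5.85 against 3.19, and only at least 1.53-fold more when counted from 5. Pdk1, which restrains entry of pyruvate into mitochondria, had 5.22 and 5.96 against 8.64, 8.29-fold less, with 7.12 and 6.73 in the RNP-IPs labelled uninduced. Hk2 and Slc2a1, counted above, and Ndrg1 were the other lower ones.

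**Figure D5:**
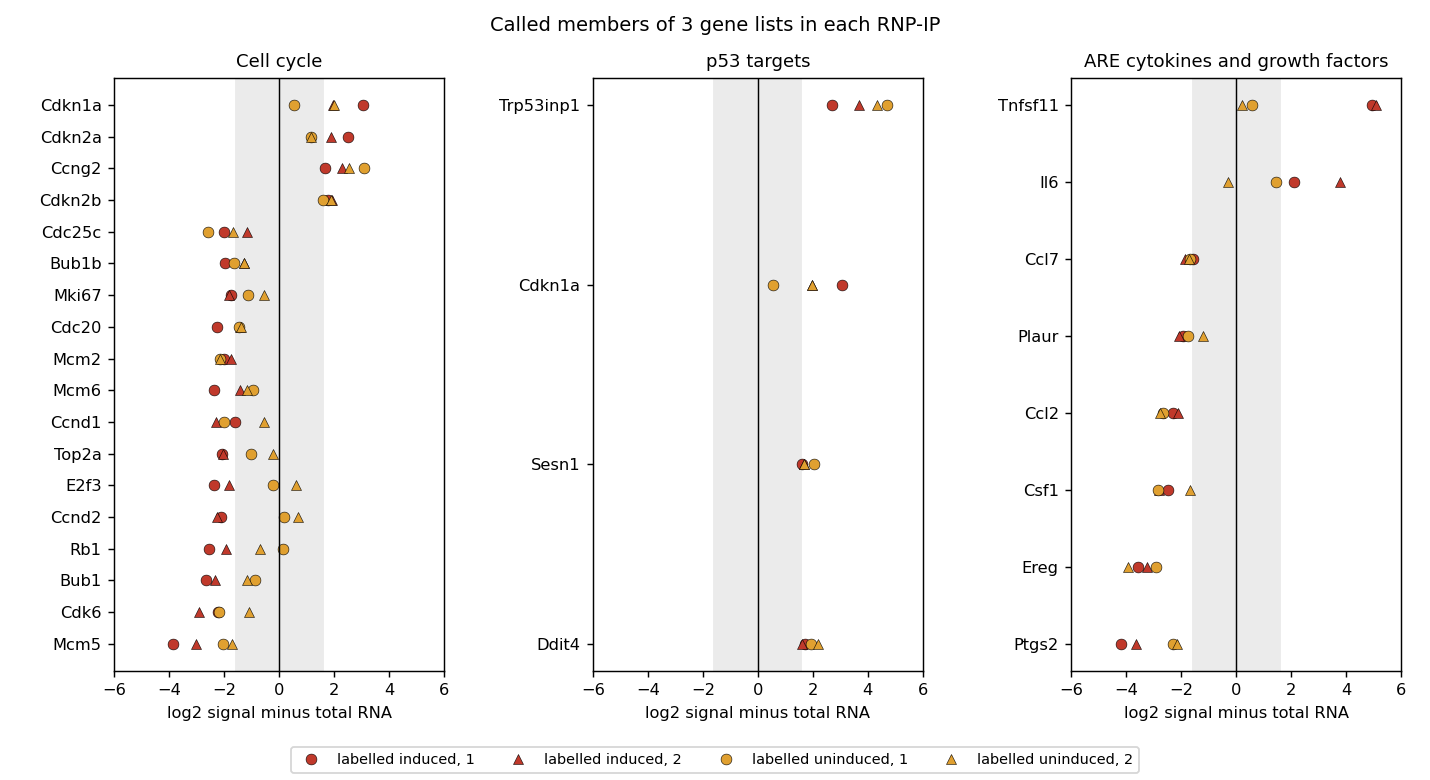
Log2 signal minus total RNA (x axis) in each of the 4 RNP-IPs for the called members of the cell cycle list, the p53 targets and the ARE-containing cytokines and growth factors. Grey marks differences within 3-fold. Genes such as Mcm2, Cdkn2b, Ddit4, Ccl2 and Ereg have all 4 RNP-IPs together, while E2f3, Ccnd2 and Tnfsf11 have those labelled uninduced (yellow) near 0.

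The mRNAs for which AUF1 is best known, short-lived and ARE-containing ones, lay on both sides of total RNA. Of 32 ARE-containing cytokines, chemokines and growth factors 2 were higher (6.25%) and 6 lower (18.8%), with a median of -0.03. Only 12 of the 32 had a mean log2 signal of at least 5, and their median signal in total RNA was 4.21 over all 32. The median difference is thus largely that of members near background. Over all genes at a mean log2 of at least 5, 4.15% were higher and 9.27% lower. Tnfsf11 and Il6 were the higher ones. Il6, a cytokine of inflammation, had 6.24 and 7.90 against 4.15, at least 4.19-fold more (adjusted p = 0.488), and this call was lost when either replicate was left out. Below total RNA were Ptgs2, Csf1, Ccl2, Ccl7 (at least 1.87-fold less when counted from 5), Plaur and Ereg. The growth factor Ereg had 5.75 and 6.05 against 9.31, 10.7-fold less, the chemokine Ccl2 had 6.19 and 6.40 against 8.51, and Csf1, the growth factor of macrophages, had 6.26 and 5.90 against 8.73. In the RNP-IPs labelled uninduced these 3 also lay below total RNA, at 6.39 and 5.38, 5.85 and 5.73, and 5.88 and 7.03. In all, 5 members of the list were called lower there.

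Of 48 immediate early and short-lived regulators 5 were higher (10.4%) and 6 lower (12.5%), with a median of -0.03. The transcription factor Fosl1 had 5.69 in both arrays against 8.92, 9.39-fold less (adjusted p = 0.0912), and was at 5.53 and 5.63 in the RNP-IPs labelled uninduced. Jun, its partner in the AP-1 complex, had 5.76 and 5.91 against 8.19. Gadd45g had 5.75 and 5.44 against 8.59, and this call was lost without either replicate, as was that of Dusp6. Myc had 5.44 and 6.84 against 8.45, and Klf6 was the sixth lower gene. Above total RNA were Nr4a2, a nuclear receptor, with 7.03 and 8.10 against 4.67 (at least 5.91-fold more), and the repressor Bcl6, with 8.75 and 9.30 against 6.15, 7.33-fold more (adjusted p = 0.152). Both rest on 1 probe set, with the others of Nr4a2 and Bcl6 near background on both sides. Klf10, Hes1 and Ier5l were also higher, and of these Klf10 was lost without replicate 2 and the others without replicate 1, which left 3 higher and 4 lower.

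Of 10 mRNAs that earlier work had tied to AUF1, as named by the study, 2 were higher (Il6 and Cdkn2a) and 4 lower (Ptgs2, Myc, Ccnd1 and Bcl2). The median was 0.03, and the calls of Il6 and Ccnd1 were lost without either replicate. Of 20 measured mRNAs that the study took to RT-PCR 10 were higher and 1, Bicc1, was lower, with a median of 2.16. The study picked that list on these arrays, so its direction is no independent evidence. Beside Tnfsf11 it held Tnfrsf21, a death receptor, at 7.68 and 7.31 against 3.97 and at least 5.65-fold more, and Erbb3, a receptor of neuregulins, at 6.97 and 7.22 against 3.96 and at least 4.27-fold more. Tnfrsf21 and Erbb3 were each called on 1 of 2 probe sets, the other being near background on both sides. Tnfaip6, a matrix protein of inflammation, had 8.87 and 10.00 against 6.47, 7.80-fold more. In the RNP-IPs labelled uninduced Tnfrsf21 and Erbb3 were near background, as in total RNA, and Tnfaip6 had 6.35 and 5.28. The lower count of this list was 2 without replicate 2.

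RNA-binding proteins were next. Of 22 proteins that bind AU-rich elements Auh and Zfp36l1 were higher and Hnrnpd lower, with 2 lower without replicate 2 and a median of 0.11. Auh had 8.70 and 8.60 against 5.99, 6.33-fold more (adjusted p = 0.107), and Zfp36l1, which drives the decay of ARE-containing mRNAs, had 10.29 and 10.70 against 8.02, 5.56-fold more. Both exceeded total RNA in the uninduced-labelled arrays as well, at 7.74 and 8.07 for Auh and 10.29 and 9.87 for Zfp36l1. Of 41 hnRNP and SR splicing factors 4 were lower (9.76%), namely Hnrnpd, Hnrnpll, Syncrip and Hnrnpa0, and none higher, with a median of 0.25. Without replicate 1 the last 3 calls were lost, and without replicate 2 the list had 2 higher and 5 lower. Another probe set of Syncrip was called lower at -2.28, and a further expressed probe set had -0.30 and was not called. Of 52 genes of deadenylation and mRNA decay Lsm2 was higher (at least 1.69-fold when counted from 5) and Dis3, Upf2 and Smg1 were lower, with a median of -0.26, and without replicate 2 the lower count was 9, while without replicate 1 the higher count was 2. The exosome nuclease Dis3 had 6.55 and 7.37 against 10.47, 11.4-fold less (adjusted p = 0.147), with 8.78 and 8.62 in the RNP-IPs labelled uninduced.

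Of 16 noncoding RNAs of the nucleus 1 was higher and 2 lower, with a median of 0.05. Only 5 of the 16 had a mean log2 signal of at least 5. Xist, the RNA of X inactivation, had 5.70 and 6.31 against 8.64, 6.21-fold less (adjusted p = 0.145), and Tug1 had 6.41 and 6.10 against 8.37, 4.35-fold less. Neat1, the scaffold of paraspeckles, ran the other way at 8.72 and 8.59 against 6.44, with a mean of 10.12 in the RNP-IPs labelled uninduced, but its call (adjusted p = 0.468) was lost without either replicate. Malat1 differed by 1.39 on its brightest probe set, which was not called, and by 3.70 on another, which was. Of 13 hosts of small nucleolar RNAs and cytoplasmic noncoding RNAs Snhg4 was higher, at 10.64 and 11.02 against 9.01, and the median was 0.75. Snhg4 stood as high in the RNP-IPs labelled uninduced, at 11.05 and 10.84. Of 10 histone genes, 3 of them at a mean log2 of at least 5, H1f2 alone was called, lower, with a median of 0.01. That call was lost without either replicate.

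Of 30 measured genes of lysosomes and vacuolar acidification, 3 were higher (10.0%) and none lower, with a median of 0.39. The shares over all genes at a mean log2 of at least 5 were 4.15% and 9.27%, and so few calls do not set this list apart. The subunit Atp6v1a of the proton pump had 10.84 and 10.97 against 8.84, 4.20-fold more (adjusted p = 0.0939), and the cholesterol transporter Npc1 had 6.82 and 7.28 against 4.09, at least 4.14-fold more. The third, Atp6v1h, was lost without replicate 1, and without replicate 2 the count was 5. Cholesterol synthesis had 2 of 21 higher (Stard4 and Sc5d) and 3 lower (Idi1, Srebf1 and Msmo1), with a median of -0.71. Idi1, an isomerase of the pathway, had 6.30 and 8.67 against 10.51, and the regulator Srebf1 had 5.55 and 5.91 against 8.12, while Stard4, a sterol carrier, had 9.47 and 10.84 against 7.71. The call of Sc5d was lost without replicate 2 and that of Msmo1 without replicate 1. Probe sets disagreed for both genes called higher, since another of Sc5d was called lower at -1.80, and 2 dimmer ones of Stard4 had -0.85 and -0.84.

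Of 55 genes of the secretory pathway 1 was higher (2 without replicate 2) and 3 lower (Tmed5, Sec24a and Cope), with a median of -0.10. Tmed5, a cargo receptor, had 5.53 and 6.94 against 9.90, 12.7-fold less, whereas its relative Tmed4 had 9.84 and 9.79 against 7.83, 3.95-fold more. Of 46 genes of the fibroblast extracellular matrix 5 were lower (10.9%, Timp1, Ccn2, Ccn1, Timp2 and, at least 1.93-fold when counted from 5, Has2) and none higher, with a median of -0.06. Other expressed probe sets of Timp2 had -0.48, -0.88 and 0.18 and were not called. The matricellular protein Ccn2 had 9.62 and 10.22 against 13.49, 11.8-fold less (adjusted p = 0.135), and its relative Ccn1 had 8.47 and 8.23 against 10.82, a call that was lost without either replicate. Without replicate 1 the matrix list had 1 higher and 3 lower, and without replicate 2 it had 2 and 6.

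Of 51 C2H2 zinc finger and Kruppel-like factors 5 were higher (9.80%, Klf10, Bcl6, Hivep2, Zfp248 and Zfp516) and 5 lower (Klf6, Klf12, Klf13, Hivep3 and Zfp800), with a median of 0.00. The lower count was 3 without replicate 1 and 8 without replicate 2. Against total RNA the RNP-IPs labelled uninduced had 5 members of this list higher and 1 lower. Counted from 5, Zfp248 was at least 2.44-fold more and Klf12 at least 1.53-fold less. Zfp800 had 2.86 and 3.83 against 6.58, at least 2.99-fold less, and Hivep3 had 3.46 and 3.77 against 6.79, at least 3.46-fold less. In the arrays labelled uninduced Zfp800 had 8.21 and 7.15, and Hivep3 had 3.97 in both. Zfp516 had 8.58 and 8.81 against 6.40, 4.91-fold more, and Hivep2 had 9.42 and 8.93 against 6.97, 4.61-fold more.

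The markers of the labelled cell type were present. Of 14 fibroblast markers Pdgfrb alone was called, lower at 7.97 and 9.50 against 10.63. Its call was lost without replicate 1, and the list then had 1 higher, while without replicate 2 it had 2 lower. The log2 of the list's summed linear signal was 15.07 and 15.18 against 15.56 in total RNA, with Fap near background throughout. Of 22 markers of epithelial, blood, endothelial and neural cells Map2 alone was called, lower, and the log2 of their summed signal was 8.81 in both arrays against 8.94. None of 9 reference genes was called, and their median was -0.21.

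By gene type, 20 of 1458 long noncoding RNA genes were higher (1.37%) and 3 lower (0.21%), against 2.11% and 4.95% of 16474 protein-coding genes. Only 102 of the noncoding genes had a mean log2 signal of at least 5, against 8134 of the protein-coding ones. Few noncoding genes could therefore have been called lower. The shares of the gene types, higher or lower, rest on unlike numbers of expressed genes and cannot be compared directly. The genes also differed in their span on the chromosome, from RefSeq. The median span was 17.9 kb for the 369 genes higher, 35.9 kb for the 819 lower and 24.4 kb for the 8264 with a mean log2 signal of at least 5 that had a span. The span includes introns, and the length of the mRNA was not measured here.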

How the data were processed

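RNA from every RNP-IP, and 1 sample of total RNA, was amplified in 2 cycles by the authors and hybridized to an Affymetrix mouse GeneChip. They normalized by RMA, with no version given, and deposited log2 values of 45101 probe sets, from 2.32 to 14.86, which were used unchanged. RMA sets the arrays to 1 common distribution of signals, so a difference in RNA amount between precipitate and cells is removed and every difference is relative to the other probe sets. Array medians were 3.77 to 3.83. Detection calls were not used here, and the few arrays limit the precision.

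All 5 arrays were fitted as 3 groups with limma 3.58.1 (R 4.3.3) by lmFit and eBayes, with 2 residual degrees of freedom and 0.877 prior degrees of freedom, after testing on simulated data. Adjusted p-values are Benjamini-Hochberg values over every probe set of the array. The study's methods grouped total RNA with the RNP-IPs labelled uninduced, while here it stood alone. The annotation tied 34958 probe sets to 1 gene, 932 to more than 1 and 9211 to no gene, and 64 probe sets are array controls. Each gene took the brightest probe set, by mean over the arrays, of those tied to it alone. Lower bounds count a log2 signal under 5 as 5 in each array.

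Genes were named by a rule. It took the 12 highest and 12 lowest called genes with both replicates beyond 3-fold, the 6 highest and 6 lowest of these at log2 10 or more in total RNA, the 6 highest under 5 in total RNA and at 7 or more in both arrays, the 6 lowest under 5 in both arrays and at 7 or more in total RNA, up to 4 members of each list with the largest difference, Hnrnpd, Gapdh, Actb and Rplp0, the 5 brightest in total RNA, the array controls of Gapdh and Actb and the highest and lowest unnamed probe set. Further list members, other probe sets of named genes and the 18S control were named after their values were seen. The comparison, the lists and the rule were chosen with earlier results of these data known. Alternatives were other scalings, filters, thresholds and gene representations, leaving out each replicate, and a replicate block. Deviations of same-numbered RNP-IPs from their group means correlated at -0.50 over all probe sets and at -0.632 at a mean log2 of at least 5. Replicate 1 of either kind thus tended to deviate like replicate 2 of the other, so the numbers were not taken as pairs.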

Additional observations from a re-analysis of the deposited data

Results flagged for a closer look

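For 20 of the genes named as farthest from total RNA, the RNP-IPs labelled induced also differed from those labelled uninduced by the call rule. The distance from total RNA was thus not the same in the 2 kinds of precipitate. Genes named only from a gene list or as fixed choices were not counted. Over all genes 1.38% were called higher and 2.65% lower between the RNP-IPs. These genes were picked for extreme values in the same arrays labelled induced, so a high share among them is built in. The values are log2 differences of the RNP-IPs labelled induced from those labelled uninduced, on 2 arrays each, from limma. Adjusted p was from 0.118 to 0.384, so none passes 0.05, and both comparisons use the arrays labelled induced.

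Higher in the RNP-IPs labelled induced were 1700001P01Rik by 5.79, Tnfsf11 by 4.60, Dus4l by 4.23 and 4732491K20Rik by 3.99. The arrays labelled uninduced were near background for these 4 genes, so that, counted from a log2 signal of 5, the differences were at least 5.51, 3.05, 2.91 and 2.29 and have no order among themselves. Measured above background in all 4 RNP-IPs were Mbnl3 (4.80), Cmbl (3.03), Fkbp7 (2.67), Nmrk1 (2.26) and Cxcl15 (1.91). A second probe set of Cxcl15 differed by 0.58 and was not called.

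Lower in the RNP-IPs labelled induced were Plaa by -4.85, Appl1 by -4.67, Tmem47 by -3.53, Wdr36 by -3.36, Megf9 by -2.93 and Cdh10 by -1.89. For these 6 at least 1 array labelled induced was near background, and counted from 5 the sizes were at least -4.41, -3.72, -3.32, -2.86, -1.90 and -1.61. Measured above background throughout were Drosha (-2.54), Timp1 (-2.21), Plk4 (-1.93), Ptgs2 (-1.70) and Plec (-1.61). The direction of Ptgs2 rests on its brightest probe set, and its other one was called higher by 2.82.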

How the results depend on the processing

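Against total RNA, 692 probe sets were higher and 1386 lower. A replicate block gave 424 and 773, a fold of at least 2 gave 1460 and 2642, and an adjusted p under 0.05 left 0 and 0. Other settings stayed within 1.5 times of both counts, including 734 and 1752 without replicate 2 and 828 and 1029 without replicate 1. Between RNP-IPs, 554 were higher and 861 lower. Here the block gave 286 and 368, the 2-fold rule 1180 and 1739, and an adjusted p under 0.05 left 0 and 0, with 5202 at an unadjusted p under 0.05. Leaving out 1 array at a time gave 508 to 793 higher and 535 to 1237 lower, the lowest without induced replicate 1. Since the numbers do not pair the arrays, the block is a check only, and crossed numbers, tried after seeing the data, gave 766 and 1559 against total RNA. Between log2 9 and 11 the share above total RNA was 5.61% after cyclic loess, 5.42% to 6.06% with 1 replicate, 2.34% with classes by total RNA and 6.72% with classes by all arrays. At 11 and over it was 3.17% after loess, 2.72% to 3.28% with 1 replicate and 0.453% with classes by total RNA, and the share below was 2.63% to 8.07% with 1 replicate and 9.97% with classes by total RNA, in which the error of that array enters both. The probe set brightest in total RNA turned Mbnl3 to -0.09 and gave -0.04 for Dus4l, where that probe set is near background on both sides and has no direction, and that of the largest difference turned Arpp19 to -3.85. No named gene changed direction under another scaling. For the counts that moved the cause was not tested, except that the stricter and looser thresholds change them by construction.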

Other observations

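Of the probe sets that the annotation used here ties to no gene, 1441657_at was farthest above total RNA. Its induced-labelled arrays gave 10.33 and 11.29 on the log2 scale against 3.56 in total RNA, at least 56.1-fold more (adjusted p = 0.11 from limma), with 3.73 and 3.38 in those labelled uninduced. The lowest was 1455728_at, with 5.88 and 5.22 against 9.44, which is 14.9-fold less (adjusted p = 0.12), and 8.05 and 8.08 in those labelled uninduced.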
